A study of Drosophila melanogaster with 3 samples.

Results

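Mitochondrial ribosomal protein genes were taken as the protein-coding genes whose symbol starts with mRpL (large subunit) or mRpS (small subunit) in the Ensembl annotation of Drosophila melanogaster, which gave 73 of the 13945 protein-coding genes on the 6 main chromosome arms. Their promoters were examined by ChIP-seq, in which chromatin is immunoprecipitated and its DNA sequenced, in whole embryos of both sexes 0 to 24 hours old. A stable transgenic line supplied CG12942, a gene with no other name in the annotation, with green fluorescent protein (GFP) at its C terminus, and an antibody to GFP was used for the precipitation. All 3 samples were biological replicates of this 1 group, so members are set against other genes and no condition is compared. No control library was analysed here, and a whole embryo mixes all cell types, so which cells carried a peak is unknown.

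The mitochondrial ribosome translates the few messages of the mitochondrial genome, which encode core membrane proteins of the respiratory chain and the ATP synthase. Its ribosomal RNAs come from the mitochondrial genome, but its proteins are encoded in the nucleus and imported, so their production depends on scattered nuclear promoters. Some of these proteins descend from bacterial ribosomal proteins, and others were added in the mitochondrial lineage. In fly embryos the maternal supply of mitochondria is shared out before the zygotic nuclear genes are active.

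A gene was called bound where the summit of a peak in the authors' optimal set lay within 500 bp of a transcription start site (TSS) of one of its protein-coding transcripts. The sequences at the summits of strong bound members are shown because they were rich in A and T. Each line gives the 101 bases of the + strand of dm6 centred on the summit, 5′ to 3′, read from the RefSeq genome, with runs of 8 or more A or T in capitals. The mark was chosen after the sequences were seen. The windows lie at chr3R:15229479-15229579 (mRpS10), chr2L:13835400-13835500 (mRpS23), chr2L:4850535-4850635 (mRpS2), chr2L:4945453-4945553 (mRpL24) and chr3L:13018110-13018210 (mRpL20), and none overlaps an annotated exon. The last 2 lines, chr2L:16329187-16329287 (mRpL4) and chr3R:22023373-22023473 (mRpL35), are shown for contrast because they hold no such run.
mRpS10: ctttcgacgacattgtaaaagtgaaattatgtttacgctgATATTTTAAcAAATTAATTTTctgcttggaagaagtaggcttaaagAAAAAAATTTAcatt
mRpS23: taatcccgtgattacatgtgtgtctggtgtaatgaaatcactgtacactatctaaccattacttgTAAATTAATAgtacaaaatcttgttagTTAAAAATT
mRpS2: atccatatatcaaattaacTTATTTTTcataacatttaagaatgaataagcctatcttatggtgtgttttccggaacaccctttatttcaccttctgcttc
mRpL24: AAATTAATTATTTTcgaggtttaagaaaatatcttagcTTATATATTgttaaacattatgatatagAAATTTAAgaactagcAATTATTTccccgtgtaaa
mRpL20: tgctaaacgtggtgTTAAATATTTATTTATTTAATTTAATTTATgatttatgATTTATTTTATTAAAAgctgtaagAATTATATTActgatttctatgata
mRpL4: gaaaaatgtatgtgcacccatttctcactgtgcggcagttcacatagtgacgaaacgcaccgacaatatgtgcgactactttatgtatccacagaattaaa
mRpL35: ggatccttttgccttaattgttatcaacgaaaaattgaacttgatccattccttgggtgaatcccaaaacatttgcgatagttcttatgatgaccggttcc

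The mRpL20 window had the lowest GC content of the 26 bound members, 16.8%, and held a run of 30 A or T. In the mRpL24 window 4 runs covered 39 of the 101 bases, and GC content was 21.8%. In the mRpS2 window a single run covered 8 bases. The mRpL4 and mRpL35 windows had GC contents of 41.6% and 38.6%.

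Many members shared a second sequence feature, nearer to their start sites. The palindrome CAGCTG, a form of the E-box recognised by basic helix-loop-helix factors, was present between 250 bp upstream and 50 bp downstream of a TSS in 41 of the 73 members (56.2%), against 30.6% of the 3815 head-to-head genes and 22.3% of all 13945 genes. It was found in 13 of 26 bound members (50%) and in 28 of 47 unbound members (59.6%), so the share was not higher among the bound. By subunit, 27 genes of the large and 14 of the small subunit had it. Of the 47 sites 17 lay within 100 bp upstream of the TSS. The signed position of all 47 centres, negative upstream, had a median of 0.5 bp. Sites lay on both sides of the TSS, so this median is not a typical distance, but most centres lay within 50 bp of it. The window reached only 50 bp downstream. The TATCGATA element, the binding sequence of the replication-related factor DREF, was present in 16 members (21.9%), against 19.0% of head-to-head genes and 10.2% of all genes. It was found in 5 bound members (19.2%) and in 11 unbound members (23.4%). GAGAG and the Ets site were less frequent in members. The sequence GAGAG, bound by GAGA factor, was present in 13 members (17.8%), against 30.9% of head-to-head genes and 36.4% of all genes, and the Ets site CCGGAA in 3 (4.11%), against 9.15% and 8.87%. Of the other 7 of the 11 motifs searched, GGTCACAC was present in 8 members (11.0%), against 16.7% of head-to-head genes and 8.71% of all genes, and CATCNCTA in 9 (12.3%), against 13.7% and 7.45%. CGATA was present in 60.3% of members, against 67.7% and 53.1%, and TATAAA in 49.3%, against 53.6% and 51.3%. The last 3, CACGTG, CACACACA and GCGCATGC, were in 5, 4 and 1 members (6.85%, 5.48% and 1.37%), against 6.55%, 5.77% and 1.23% of head-to-head genes. CAGCTG and TATCGATA are palindromes and were counted once per place. A gene with several TSSs had several windows, which was the case less often for members, 91.8% of which had 1 TSS, than for all genes, 73.5% of which had 1. Each of the following lines gives 30 bases of the + strand of dm6 around such a site outside exons, with the motif in capitals. They show the match next to its surroundings in bound and unbound members, and all sites shown lie upstream of the TSS. The sites of the bound members lie at chr3L:19255067-19255096 (mRpL21), chr2L:13835263-13835292 (mRpS23) and chrX:1890213-1890242 (mRpL16), and those of the unbound members at chr3R:7902710-7902739 (mRpS9) and chrX:2344704-2344733 (mRpL14).
mRpL21, CAGCTG: cgcgttttcgaaCAGCTGtgttagcatgcg
mRpS23, TATCGATA: cattatgttacTATCGATAccagtccaaac
mRpL16, TATCGATA: aatcggtggtcTATCGATAtatgtttttag
mRpS9, CAGCTG: cacacaagctttCAGCTGatttttggcgcc
mRpL14, CAGCTG: taacagagcaagCAGCTGttaagagcggac

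Few of these sites lay within 50 bp of a peak summit. In bound members the centre of a CAGCTG lay at a median of 110.5 bp from the summit, and 1 of 16 sites, in mRpL18, lay within 50 bp of it. The 6 TATCGATA sites of bound members lay at a median of 156.5 bp from the summit, with 0 within 50 bp. The wider window of 100 bp to each side held CAGCTG at 6 of 26 bound members (23.1%), against 12.0% of all optimal summits at promoters. In that window TATCGATA was present at 1 of 26 (3.85%), against 7.82%.

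The measurements behind the results are the authors' peak lists on dm6. The optimal set holds 3844 peaks and was made by the authors from the replicate and pooled lists with the irreproducible discovery rate (IDR). This method is meant to keep peaks ranked alike, so the replicates are not independent of the set. Some bound members, such as mRpL18, still had widely different ranks between replicates. At every bound member the signal and rank in the optimal set equalled those in the pooled list. The replicate lists hold 30000, 30000 and 27870 peaks and include background, so the 3844 strongest peaks of each were used where a replicate is counted on its own. The signal is the value the authors' peak caller gave each peak, and its scale differs between lists, so replicates are compared by rank within a list, with rank 1 the strongest. The number of reads per library is unknown, and so is the depth. All 2674 genes called bound are 19.2% of the genes tested.

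Of the 73 members 26 were bound, which is 35.6%, against 19.2% of all genes. In the strongest 3844 peaks of replicates 1, 2 and 3 the bound members numbered 26, 33 and 25, or 35.6%, 45.2% and 34.2%. The share of all genes bound in the same peaks was 18.6%, 19.2% and 18.8%. The mean over replicates was 38.4% ± 5.97 of members and 18.9% ± 0.288 of all genes (SD, n = 3), so the member share lay above that of all genes in each of the 3 replicates. Of all members, 17 were bound in the strongest peaks of all 3 replicates and 38 in at least 1 of them. The matching counts for all genes were not made, so these numbers stand without a background.

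Bound genes were found in both subunits. In the small subunit 12 of 26 genes were bound (46.2%), and in the large subunit 14 of 47 (29.8%). In replicates 1, 2 and 3 the small subunit had 11, 15 and 10 bound genes, a mean share of 46.2% ± 10.2 (SD, n = 3). The large subunit had 15, 18 and 15, a mean of 34.0% ± 3.69. The 2 ranges are 10 to 15 of 26 and 15 to 18 of 47, and the subunits were not compared by a test. Among genes whose protein has a bacterial counterpart 18 of 45 were bound (40%), and among those without a counterpart 8 of 28 (28.6%). That grouping was chosen after the calls were seen.

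Bound members were found on every arm that carries members. Arm 2L had 6 bound of 12 members, 2R had 5 of 12, 3L had 6 of 17 and 3R had 8 of 21. The share of all genes bound was not computed for each of these arms. On X 1 of 11 members was bound (9.09%), mRpL16, against 16.4% of all genes on X. Off X 25 of 62 members were bound (40.3%), against 19.7% of all genes there. No member lies on arm 4.

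The members' promoters were mostly shared with a neighbour. A gene was called head-to-head where its TSS had a divergent TSS of another protein-coding gene within 500 bp upstream, and 53 of 73 members (72.6%) were of this kind, against 27.4% of all genes. Of these, 24 of 53 members were bound (45.3%), against 40.6% of all head-to-head genes. Of the members without such a neighbour 2 of 20 were bound (10%), mRpL41 and mRpL4, against 11.1% of other genes. These shares depended on the spacing that counts as head-to-head. At 250 bp 8 of 25 head-to-head members were bound (32%), against 36.2% of such genes, and 18 of 48 other members (37.5%), against 16.4% of other genes. At 1000 bp 26 of 58 head-to-head members were bound (44.8%), against 35.7%, and 0 of 15 others, against 9.81%.

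The replicates differed for head-to-head members. In replicates 1, 2 and 3 these were bound at 22, 29 and 21 genes (41.5%, 54.7% and 39.6%), against 39.0%, 39.6% and 39.1% of all head-to-head genes. Replicate 2 stood well above its background, and replicates 1 and 3 lay close to theirs. The mean share was 45.3% ± 8.22 of head-to-head members and 39.2% ± 0.342 of head-to-head genes (SD, n = 3). Among members without a partner 4 of 20 were bound in each replicate, which is 20% against 11.2% ± 0.268 of other genes. The plot of bound shares by arrangement sets these values side by side, and the replicate means of members lie above those of all genes in both arrangements.

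**Figure D1:**
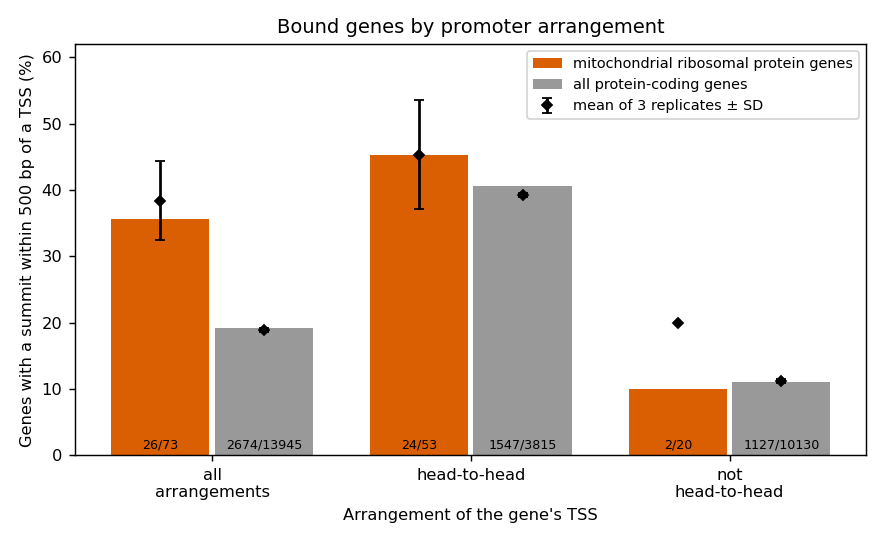
Share of genes called bound from the optimal set (bars, percent, y axis) by arrangement of the TSS (x axis), for mitochondrial ribosomal protein genes (orange) and all protein-coding genes (grey), with bound and tested genes printed in each bar. Diamonds with error bars are the mean and SD of the same share in the strongest 3844 peaks of the 3 replicates. Head-to-head members stand at 45.3% beside 40.6% of head-to-head genes, and members without a partner at 10% beside 11.1%, with a replicate mean of 20%.

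The spacing of a pair differed between bound and unbound members. The TSS of the bound head-to-head members lay at a median of 294 bp from that of the partner (range 20 to 492 bp), and for the unbound ones at 126 bp (21 to 499 bp). Among members with at least 200 bp between the starts 18 of 31 were bound (58.1%), against 46.5% of all head-to-head genes with such a gap. Among members with a gap under 200 bp 6 of 22 were bound (27.3%), against 31.4%. All head-to-head genes showed the same order with medians closer together, 259 bp for the bound and 228 bp for the unbound. The split at 200 bp was chosen after the values were seen.

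A summit between 2 starts counts for both genes, and in all 24 bound pairs the partner was bound by the same summit. No pair joined 2 members. The summit was nearer to the partner's TSS in 14 pairs and to the member's in 10. These counts were not made for all bound head-to-head genes. Counting a summit only for the gene with the nearest TSS left 12 of 73 members (16.4%), against 13.8% of all genes. Genes tied for the nearest TSS were each counted. Under that rule the members' share was close to the background.

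The 4 strongest member peaks were among the strongest of the whole data set. Each ranked within the strongest 100 of every replicate, which held for 4 of 26 bound members (15.4%) and for 48 of the 2008 optimal peaks at promoters (2.39%). Further, 6 of the 26 bound members lay within the strongest 384 optimal peaks, as did 257 of the 2008 promoter peaks (12.8%).

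The strongest lay at mRpL41 (FBgn0034001), whose product is a mitochondria-specific protein of the large subunit. Its peak, at chr2R:15217579-15217945 in dm6, had signals of 369, 369 and 427 in replicates 1, 2 and 3 and ranked 11, 6 and 8. The rank moved by 5 places at most. The summit lay 148 bp upstream of the TSS, and no other protein-coding gene had a TSS within 500 bp of the summit. mRpL41 has no head-to-head partner within 500 bp. At the spacing of 1000 bp it counted as head-to-head, as did mRpL4.

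mRpS10 (FBgn0038307) encodes the counterpart of bacterial S10, a protein of the head of the small subunit. Its peak (chr3R:15229337-15229737) had signals of 413, 334 and 410 and ranked 6, 10 and 11 in replicates 1, 2 and 3. The summit lay 136 bp upstream of the mRpS10 TSS in the 257 bp that part it from Art3, which encodes a protein arginine methyltransferase, close to the middle of the interval. mRpS23 (FBgn0260407), a mitochondria-specific protein of the small subunit, had the steadiest rank, 21 in each of the 3 replicates, with signals of 299, 274 and 328 (chr2L:13835285-13835641). Its summit lay 378 bp upstream, the farthest of the bound members, and nearer to CenG1A, which encodes an Arf GTPase-activating protein and starts 492 bp away.

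mRpL23 (FBgn0035335) encodes the counterpart of bacterial L23, which in bacteria sits at the mouth of the exit tunnel. Its peak (chr3L:2373444-2373785) ranked 82, 39 and 33, with signals of 192, 213 and 271 in replicates 1, 2 and 3. It was the only bound member with a summit downstream of its nearest TSS, by 60 bp. mRpL23 has 3 annotated TSSs, of which the closest to its partner CG9004 lies at 24 bp.

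Next came mRpS2 and mRpL24, both counterparts of bacterial proteins and both of them in short intervals. The mRpS2 peak (chr2L:4850423-4850713) ranked 255, 173 and 148, with signals of 124, 124 and 159, and its summit lay 166 bp upstream in a 222 bp interval shared with Mon1, whose product acts in the exchange factor for Rab7. The mRpL24 peak (chr2L:4945349-4945625) ranked 212, 235 and 205, with signals of 137, 107 and 137, and lay 142 bp upstream in a 218 bp interval shared with betaggt-I, which encodes a subunit of a protein prenyltransferase. For both, all 3 replicates placed the peak within its strongest 384.

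The other 4 of the 10 strongest lay lower. mRpL20, the counterpart of a bacterial protein that binds early in assembly of the large subunit, ranked 642, 490 and 459 with signals of 84.6, 78.7 and 95.5 (chr3L:13018022-13018292), and the summit lay 293 bp upstream, nearer to Icmt, an isoprenylcysteine methyltransferase gene. mRpL34 ranked 845, 758 and 972 with signals of 72.9, 64.1 and 65.7 (chr2R:16098579-16098982), 167 bp upstream and 384 bp from Dg, which encodes dystroglycan. mRpL4, whose bacterial counterpart lines the exit tunnel, ranked 1042, 1305 and 553 with signals of 66.0, 47.5 and 87.2 (chr2L:16329035-16329438), and is the other bound member without a partner. mRpS6, counterpart of bacterial S6, ranked 739, 1248 and 868 with signals of 78.4, 48.8 and 69.5 (chr3L:4364346-4364553), and the summit lay 93 bp upstream in the 448 bp shared with Cip4, an F-BAR protein gene. In these 4 the ranks of the replicates spread by up to 2.36-fold, the widest being that of mRpL4.

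In the rest, signals in the optimal set ran down to 81.3. mRpL37 ranked 2435, 776 and 517 in replicates 1, 2 and 3, and mRpS26, paired with CG13698, ranked 1210, 2115 and 1144. mRpS7, paired with the mitotic kinase gene Cdk1, ranked 2087, 1066 and 1634. mRpL47, paired with CG8176 and the histone demethylase gene Kdm3, ranked 1922, 1206 and 1899. These 4 and mRpS18B, paired with Kua and ranked 1754, 2228 and 1382, were among the strongest 3844 of every replicate. So were mRpS31, paired with hzg (2714, 2934 and 1673), and mRpL53, paired with AGO1, the Argonaute 1 gene (2436, 2578 and 2777). CG33155 also had a TSS near the mRpL53 summit, at the same distance as that of mRpL53.

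The other 9 bound members were missing from the strongest 3844 of at least 1 replicate. mRpL18, paired with the tafazzin gene Taz, ranked 10331 in replicate 1 but 1094 and 1278 in replicates 2 and 3, the widest spread of all, 9.44-fold. mRpS16, paired with the zinc finger gene cg, ranked 1297, 2737 and 5247, and mRpS24, paired with Apc2, ranked 1475, 1723 and 4140. mRpS22, paired with CG5003, ranked 3960, 1380 and 1418. Each of these left the strongest 3844 in a single replicate.

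The same held for 4 others near the end of the list. mRpL21, paired with reptin (rept), ranked 2327, 3041 and 3915, and mRpL44, paired with the Brahma complex gene Snr1, ranked 2973, 3578 and 3956. mRpL16, the member on X, paired with the histone methyltransferase gene trr, ranked 4660, 3314 and 2941, and mRpS21, paired with the DnaJ gene Droj2, ranked 3134, 3549 and 4679. mRpL35, paired with Mitofilin, a gene for a subunit of the complex that shapes mitochondrial cristae, ranked 6769, 1788 and 4775 and was within the strongest 3844 of replicate 2 alone. In all, 17, 8 and 1 of the 26 were found there in 3, 2 and 1 replicates.

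**Figure D2:**
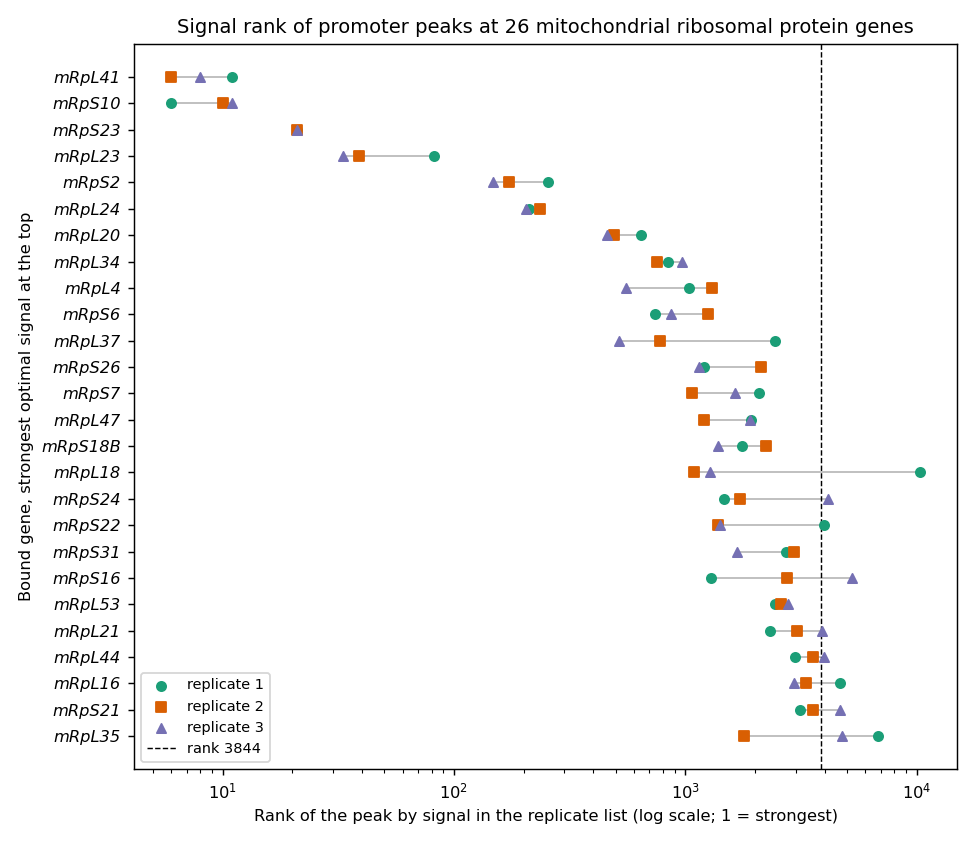
Rank by signal (x axis, log scale, 1 is the strongest) of the peak matched to each of the 26 bound members (y axis, strongest optimal signal at the top) in replicates 1, 2 and 3 (circles, squares, triangles). The dashed line marks rank 3844. The 4 genes at the top stay within rank 100 in every replicate, while mRpL18 reaches rank 10331 in replicate 1.

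Over all bound members the median rank was 1614.5, 1276.5 and 1330 in replicates 1, 2 and 3, against 1739.5, 1617 and 1668.5 for the optimal promoter peaks. The means of these medians were 1407 ± 182 and 1675 ± 61.5 (SD, n = 3), and the member median was the lower number, that is the stronger, in each replicate. The median optimal signal was 147 at bound members and 134 at promoter peaks, and 15 of the 26 lay above the promoter median. The share within the strongest 3844 of all replicates was 65.4% of bound members and 66.4% of promoter peaks. As a group the members were thus near the other promoter peaks, and 4 genes stood far above. The median signal was 165 in the large and 145 in the small subunit.

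The summits lay upstream of the starts. The median position was -139 bp from the nearest TSS of the member, with the middle of the distribution between -194.75 and -92.25 bp (25th and 75th percentiles), and over all bound genes it was -132.5 bp. Upstream summits were found at 25 of 26 bound members (96.2%) and at 90.7% of all bound genes. Summits 50 to 200 bp upstream were found at 19 bound members (73.1%) and at 52.2% of all bound genes. In replicates 1, 2 and 3 the member median was -163, -132 and -134 bp, with a mean of -143 ± 17.3 bp (SD, n = 3).

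In 22 of the 24 bound pairs the summit lay between the 2 starts. The matching share of all bound head-to-head genes was not computed, so this count stands without a background. The exceptions were mRpL23 and mRpL18, which have the 2 shortest gaps, 24 and 20 bp. At mRpL18 the summit lay 95 bp upstream of its TSS, which puts it 75 bp inside the transcribed side of Taz. From the partner's TSS the median position was -117.5 bp. Replicate summits lay at a median of 13 bp from the optimal summit, with 66 of 78 within 50 bp and the farthest, at mRpL16, 100 bp away. Only summits within 200 bp of the optimal summit were matched, and the optimal set was made from the same replicates. Closeness was thus partly built in, and it was not computed for other promoter peaks.

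**Figure D3:**
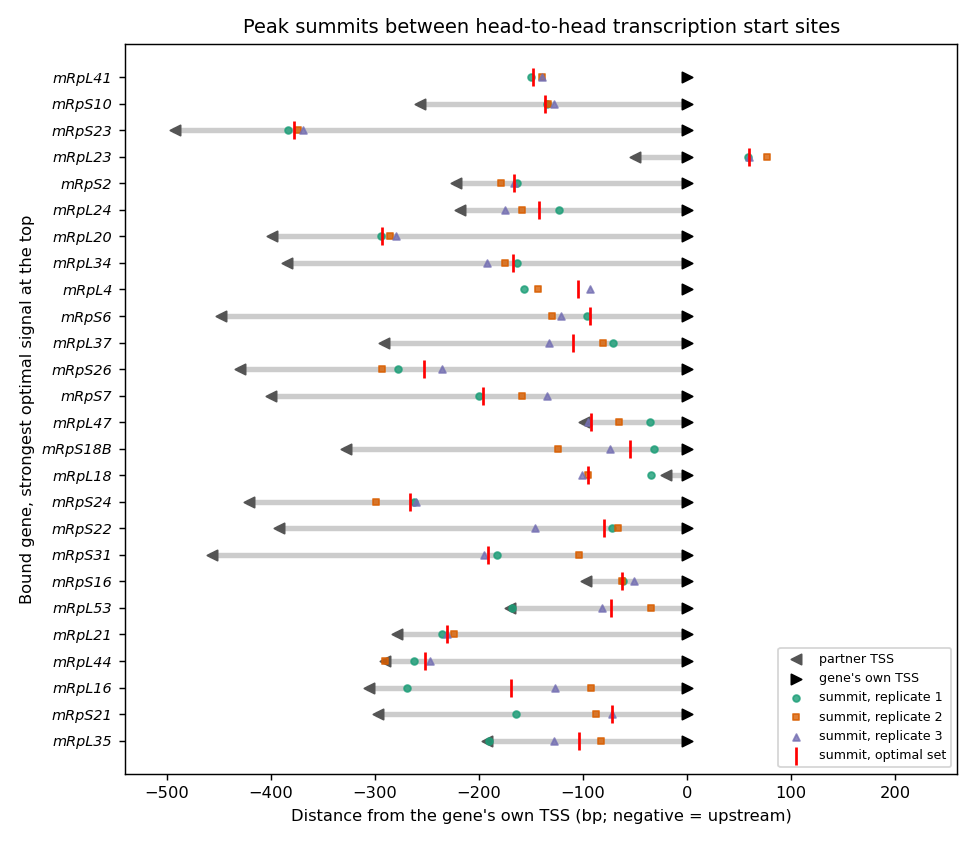
Position of the summits relative to the nearest TSS of each bound member (x axis, bp, negative is upstream) for 26 genes (y axis, strongest at the top). Arrowheads mark the starts of the member and of any head-to-head partner, grey bars the interval between them, coloured symbols the summits of the 3 replicates and red bars the optimal summit. In 22 of 24 pairs the red bar lies between the arrowheads, a share not computed for other head-to-head genes. For mRpL23 the TSS drawn is the one nearest to the summit.

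The limit of 500 bp did not cut through a cluster of members. The bound members farthest from their summits were mRpS23 at 378 bp, mRpL20 at 293 bp and mRpS24 at 266 bp. The unbound members nearest to an optimal summit were mRpL27 at 1246 bp, mRpL13 at 1410 bp and mRpS18A at 1419 bp. No member had its nearest summit between 501 and 1000 bp. Few genes of any kind did, as the share of all genes bound was 19.2% at 500 bp and 21.8% at 1000 bp. Over the 47 unbound members the median distance was 6507 bp.

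The unbound members ranged from no peak at all to near the threshold. The counts of their peaks, here and below, were not made for all unbound genes, so they stand without a background. Summits in the strongest 3844 of 2 replicates were found at 4 of them. mRpL11, counterpart of bacterial L11 of the factor-binding stalk base, ranked 3125 and 2508 in replicates 2 and 3 but 9446 in replicate 1. mRpS29 ranked 3184 and 3283 in replicates 2 and 3 but 6947 in replicate 1. mRpL19 ranked 3128 and 3820 and mRpL48 ranked 3738 and 3668 in replicates 1 and 2, while in replicate 3 mRpL19 ranked 9618 and mRpL48 had no peak. None of the 47 was there in all 3 replicates.

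Another 8 had such a summit in a single replicate. These were mRpL9 and mRpL51 in replicate 1, at ranks 3743 and 3694. In replicate 2 they were mRpL17, mRpS11 and mRpS17, at ranks 2670, 2863 and 3280. In replicate 3 they were mRpL32, mRpL36 and mRpL54, at ranks 3645, 3488 and 3276. Most of these ranks lie near the limit of 3844.

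The remaining 35 had none, and 7 of these had no peak within 500 bp of a TSS in any list. Of the 7, mRpL14, mRpL33, mRpL38 and mRpS14 lie on X, mRpL46 and mRpS35 on 3L and mRpS28 on 2R. The others had weak peaks: mRpL1, mRpL2, mRpL3, mRpL10, mRpL12, mRpL13, mRpL15, mRpL22, mRpL27, mRpL28, mRpL30, mRpL39, mRpL40, mRpL42, mRpL43, mRpL45, mRpL49, mRpL50, mRpL52, mRpL55, mRpS5, mRpS9, mRpS18A, mRpS18C, mRpS25, mRpS30, mRpS33 and mRpS34. Among all 47, a peak of any rank was present in 3 replicates at 16 genes, in 2 at 15 and in 1 at 9. In the authors' pooled list of 27271 peaks 31 of them had a peak, the strongest at rank 3889 (mRpL11) and the median at 6288. Of the 29 unbound head-to-head members 2 had a bound partner, mRpL2 with FoxK and mRpL22 with if, which were bound through a summit beyond 500 bp from the member.

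**Figure D4:**
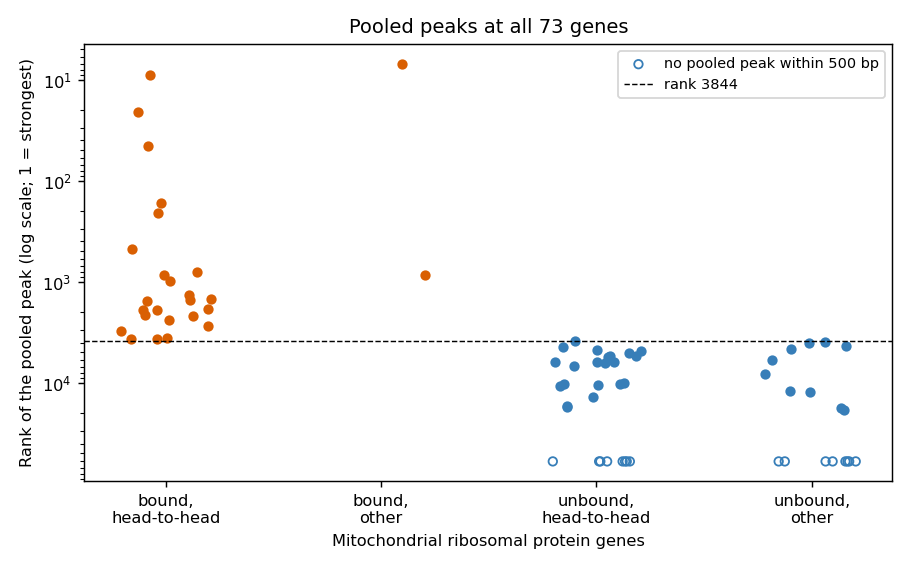
Rank in the authors' pooled list (y axis, log scale, strongest at the top) of the peak within 500 bp of a TSS for all 73 members, split by call and arrangement (x axis). Filled points are genes with a pooled peak, open points at the foot are genes with none, and the dashed line marks rank 3844. All 26 bound members lie above the line, and the first unbound member, mRpL11, lies at rank 3889. The bound members have the same ranks here as in the optimal set, so their place above the line follows from the call.

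Bound summits lay in dips of GC content. The median GC content within 50 bp of the summit was 29.7% at bound members (range 16.8 to 57.4%), against 33.7% at all optimal promoter summits and 32.7% at all optimal summits. With the summits of replicates 1, 2 and 3 the member median was 29.7%, 30.2% and 30.7%. At 400 bp to the sides it was 49.3% for members and 45.0% for promoter summits. Lower GC at the summit than in the flanks was found at 23 of 26 bound members and at 78.6% of promoter summits.

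Low GC was not particular to bound members. Windows of the same size centred 132 bp upstream of the unbound members' starts had a median of 27.7%, lower than at the bound summits, while those of all protein-coding starts had 36.6%. A run of 8 or more A or T was present at 21 of 26 bound summits (80.8%), against 74.5% of promoter summits, and in 47 of 51 windows at unbound members (92.2%), against 64.4% at all starts. The bound summits without a run were those of mRpL4, mRpL18, mRpL35, mRpL53 and mRpS16, of which mRpL53 and mRpS16 had the highest GC content, 57.4% each.

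**Figure D5:**
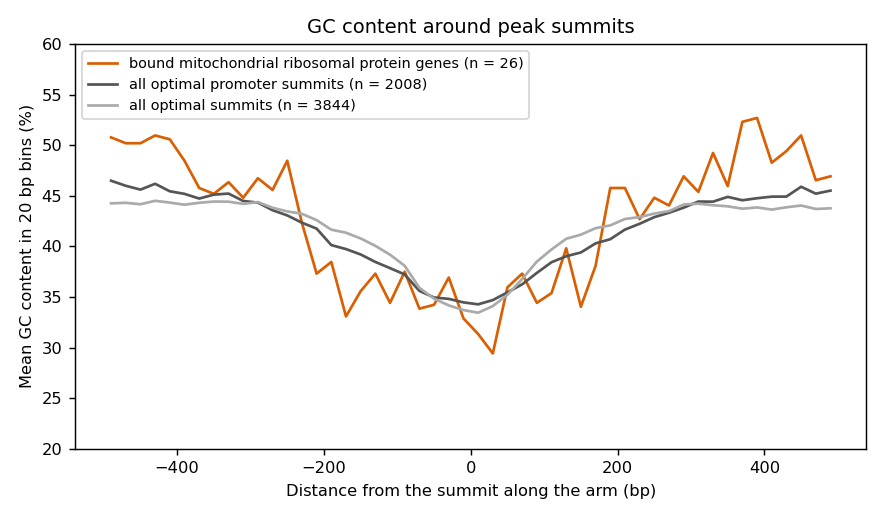
Mean GC content in 20 bp bins (y axis, percent; the axis starts at 20) by distance from the summit along the arm (x axis, bp) for the 26 bound members (orange), the 2008 optimal promoter summits (dark grey) and all 3844 optimal summits (light grey). All 3 lines dip at the summit, and the member line is the most uneven because it rests on 26 windows.

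Of 11 fixed motifs, 11 of 26 bound summits held at least 1 within 50 bp (42.3%), against 53.1% of promoter summits. All were searched on both strands. TATAAA was found at 4 (mRpL23, mRpL37, mRpS24 and mRpS31; 15.4%), against 21.3% of promoter summits. CGATA, the core bound by the insulator protein BEAF and part of TATCGATA, was found at 3 (mRpL16, mRpL35 and mRpL47; 11.5%), against 23.4%. GAGAG was found at 2 (mRpL23 and mRpL53; 7.69%), against 8.17%. The E-box CAGCTG at mRpL18, the Ets site CCGGAA at mRpS2 and the CA repeat CACACACA at mRpS16 occurred in a single window each (3.85%), against 5.13%, 2.09% and 0.598%. The other 5 were found at 0 of 26, against 3.39% of promoter summits for TATCGATA, 1.69% for the promoter motif 1 core GGTCACAC, 1.29% for the E-box CACGTG, 0.0498% for the Erect wing site GCGCATGC and 3.93% for the promoter motif 7 core CATCNCTA.

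Other genes of mitochondrial gene expression were bound as well. Of 42 such genes 11 were bound (26.2%), against 19.2% of all genes, with a mean over replicates of 21.4% ± 4.12 (SD, n = 3), whose range includes the share of all genes. Of these 42, 21 were head-to-head, of which 8 were bound (38.1%), against 40.6% of all head-to-head genes, and of the other 21 genes 3 were bound (14.3%), against 11.1%. Without replicate 1 the share of the 42 was 11.9%, against 15.8% of all genes, and without replicate 2 it was 14.3%, against 14.5%. The ribosomal protein genes with other names, tko and bonsai, were 0 of 2. In RNA processing 3 of 10 were bound, with PNPase, which encodes polynucleotide phosphorylase, at a signal of 1026, SLIRP2 at 604 and SLIRP1 at 220. In mitochondrial transcription 3 of 7 were bound, PolrMT, the RNA polymerase gene, at 88.6, mTerf3 at 91.0 and mTerf5 at 119. In translation factors 1 of 8 was bound, mIF2, the initiation factor 2 gene, at 90.7. Among mitochondrial aminoacyl-tRNA synthetases 4 of 15 were bound, ArgRS-m at 103, CysRS-m at 90.0, ProRS-m at 86.7 and LeuRS-m at 80.7. PNPase ranked 15, 9 and 18 and SLIRP2 ranked 73, 58 and 70 in replicates 1, 2 and 3, in the range of the 4 strongest ribosomal protein genes.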

How the data were processed

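ChIP-seq peak lists from 3 biological replicates of CG12942-GFP embryos were used as the authors deposited them, 5 lists on dm6. Each gives a signal per peak from the authors' peak caller, a −log10 q-value deposited by the authors, not used for ranking, and a summit offset. Per the deposited file listings, replicate lists were called against a control alignment, and the optimal list was derived from replicate and pooled lists by IDR. The aligner and peak caller were not given in the sources used here. Lists on dm3 were not used.

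Genes and starts came from Ensembl release 115, and sequences from the RefSeq genome of the same assembly, whose arm lengths hold every dm6 peak. Promoter windows (250 bp before to 50 bp after a start) were read from this genome. Coordinates are 1-based. Summits within 200 bp were matched between lists. Motif windows reached 50 bp to each side. No p-value was computed: with 1 group of samples, members are described by counts beside all genes, and replicates give the spread. Every bound member is named, and the 10 with the highest signal are given in full; unbound members are named by their replicate peaks. The name of 1 partner gene is not reported here. The members, gene lists and motifs were chosen with earlier results of these data known. Functions were tested on simulated data. Alternatives changed the distance, peak set, start sites, counting, pair spacing, match and motif windows, and left out each replicate in turn. Python 3.11.15, numpy 2.4.6, pandas 2.3.3 and matplotlib 3.10.9 were used.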

Additional observations from a re-analysis of the deposited data

How the results depend on the processing

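The count of 26 bound members (35.6%) was the same with a limit of 1000 bp and with the 5′ end of each gene only, against 21.8% and 17.4% of all genes. The strongest 3844 pooled peaks also gave 26 members and 2674 genes (19.2%). Every bound member had the same signal and rank in the pooled list as in the optimal set, so that setting is no separate check. The count was 21 at 250 bp (28.8%, against 15.5%) and 18 in the stronger part of the optimal set (24.7%, against 11.4%). It was 17 among peaks matched in all replicates (23.3%, against 13.3%), and 12 where a summit counts for the nearest TSS alone (16.4%, against 13.8%). Leaving out each replicate, with peaks matched between the remaining replicates, gave 17 to 24 bound members, 9 to 13 of the large subunit, 8 to 11 of the small subunit and 15 to 21 head-to-head. Without replicates 1, 2 and 3 the members' share was 30.1%, 23.3% and 32.9%, against 15.8%, 14.5% and 14.7% of all genes. These peak sets are smaller than the optimal set by construction. The head-to-head count was 8 at a spacing of 250 bp. The median summit position was -163 bp in replicate 1. Leaving out a replicate moved the mean median rank between 1303.25 and 1472.25 and the mean count per replicate between 25.5 and 29.5. Summits with a motif numbered 5 within 25 bp (19.2%, against 31.9% of promoter summits) and 18 within 100 bp (69.2%, against 79.8%). Leaving out a replicate gave 5 to 8 other mitochondrial gene-expression genes: 5 without replicate 1 (11.9%, against 15.8% of all genes), 6 without replicate 2 (14.3%, against 14.5%) and 8 without replicate 3 (19.0%, against 14.7%). The cause of these changes was not tested. No paired analysis was possible because the samples form 1 group. Depth is unknown, so weak peaks at unbound members cannot be told apart from background.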
